A study of Mus musculus with 12 samples.

Results

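RNA of the replication-coupled histone genes was examined in cortex of newborn mice (P0) in which the 2 genes for histone H3.3, H3f3a and H3f3b, are labelled as conditionally deleted with Cre recombinase. The genes were taken by symbol: those named Hist followed by a cluster number, h, a histone type (1a to 1e, 2a, 2b, 3 or 4) and letters, which gave 59 of the 51912 genes in the count tables. By type they were 5 linker histone H1, 17 H2A, 16 H2B, 10 H3 and 11 H4 genes. By the cluster in the symbol, 53 were Hist1 genes on chromosome 13, 5 were Hist2 genes on chromosome 3 and 1 (Hist3h2ba) was a Hist3 gene on chromosome 11. GENCODE M21 annotates 57 of them as protein coding and 2, Hist1h2aj and Hist1h2al, as pseudogenes. The pattern leaves out histone genes whose symbols end in the type or in a digit, such as Hist2h4, Hist4h4, Hist2h2aa2 and Hist2h3c2.

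The 12 libraries came from cortex at P0, 4 in each of 3 groups. In dKO-E, by the labels, both H3.3 genes were targeted with Emx1-Cre, which acts in cortical progenitors and so reaches the excitatory neurons that come from them. In dKO-N, they were targeted with Neurod6-Cre, which acts in excitatory neurons that have left the cell cycle and spares progenitors. The third group is labelled control, and its alleles and Cre status are not given in the labels. Other cells of the cortex, such as interneurons and vessels, are not main targets of either Cre. Separate animals are not named in the labels. A p-value here therefore reflects spread among the libraries alone, part of which may be technical. Levels are scaled counts, as CPM (counts divided by the library's TMM-scaled total), and the values of a group are given as mean ± SD with n = 4 libraries.

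Replication-coupled histone genes make the bulk of the histones that package new DNA, and they are transcribed mainly in S phase. Most of their transcripts lack a poly(A) tail and end in a short stem-loop bound by SLBP, and NPAT and coilin act in the nuclear bodies where they are made. Neurons that have left the cell cycle no longer replicate DNA and come to rely on H3.3, which chaperones such as HIRA deposit outside replication. In newborn cortex, cycling radial glia and intermediate progenitors are the main cells of the excitatory lineage that express the replication-coupled genes. The RNA was depleted of ribosomal RNA rather than selected for poly(A), and transcripts without a tail could be measured.

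The stem-loop was searched in the GENCODE M21 transcripts (mm10) on the gene strand, as GG, any 2 bases, CTTTT, any base, AG, any 2 bases, CC. It was present in 34 of the 59 genes and in 89 of the 55450 annotated genes with a transcript (0.161%). By type it was found in 3 of 5 H1, 8 of 17 H2A, 8 of 16 H2B, 6 of 10 H3 and 9 of 11 H4 genes. A gene with no match is one whose annotated transcript does not hold these letters, and whether its model stops short of a stem-loop was not checked. The 6 lines below show the forms that differed, with the stem-loop in capitals and 5 bases on each side.
Hist1h1d: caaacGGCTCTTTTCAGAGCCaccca
Hist2h2ac: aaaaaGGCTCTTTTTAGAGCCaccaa
Hist1h3e: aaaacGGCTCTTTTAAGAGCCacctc
Hist1h4d: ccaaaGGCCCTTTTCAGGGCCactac
Hist1h4j: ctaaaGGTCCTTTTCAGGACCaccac
Hist1h4i: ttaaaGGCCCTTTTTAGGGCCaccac
The form of Hist1h1d was the most frequent, in 19 genes of types H1, H2A, H2B and H3. The form of Hist1h3e stood in 5 genes, and that of Hist2h2ac in this gene alone. The 9 H4 genes used their own stems: 6 shared the letters of Hist1h4d, 2 (Hist1h4b and Hist1h4j) those of Hist1h4j, and Hist1h4i had the sixth form.

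Promoters were taken from RefSeq (GRCm38.p6, the assembly of mm10), in which 52 of the 59 genes had a window from 250 bases before to 50 bases after the start. The lines below give the 150 bases before the RefSeq start of the 6 protein-coding genes that passed a test below, 5′ to 3′ on the gene strand. Capitals mark CCAAT or its reverse complement ATTGG, and TATAAA or its reverse complement TTTATA.
Hist1h1b: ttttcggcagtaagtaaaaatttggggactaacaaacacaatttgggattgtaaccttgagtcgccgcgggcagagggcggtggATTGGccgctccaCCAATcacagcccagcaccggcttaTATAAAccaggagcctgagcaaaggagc
Hist1h1c: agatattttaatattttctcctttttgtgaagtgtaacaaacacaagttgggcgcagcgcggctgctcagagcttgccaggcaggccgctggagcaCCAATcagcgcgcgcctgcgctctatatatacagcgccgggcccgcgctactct
Hist1h1d: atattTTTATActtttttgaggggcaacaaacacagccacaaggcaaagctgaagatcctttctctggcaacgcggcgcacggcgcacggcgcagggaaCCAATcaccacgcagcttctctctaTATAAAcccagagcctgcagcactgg
Hist1h2af: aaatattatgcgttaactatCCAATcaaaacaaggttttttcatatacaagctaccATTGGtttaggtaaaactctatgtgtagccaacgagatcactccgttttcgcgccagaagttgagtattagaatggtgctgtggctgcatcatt
Hist2h2ac: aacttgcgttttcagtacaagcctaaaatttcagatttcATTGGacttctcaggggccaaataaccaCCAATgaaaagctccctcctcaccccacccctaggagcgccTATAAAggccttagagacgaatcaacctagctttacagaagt
Hist1h4d: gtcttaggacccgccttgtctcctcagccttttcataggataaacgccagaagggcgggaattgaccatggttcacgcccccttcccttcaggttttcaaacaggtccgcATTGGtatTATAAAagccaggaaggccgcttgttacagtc
The windows are chr13:21780626-21780775 (minus strand) for Hist1h1b, chr13:23738657-23738806 (plus) for Hist1h1c, chr13:23554882-23555031 (plus) for Hist1h1d and chr13:23533725-23533874 (plus) for Hist1h2af. Those of the others are chr3:96220881-96221030 (minus) for Hist2h2ac and chr13:23581418-23581567 (plus) for Hist1h4d. The RefSeq start of Hist1h1d lies inside the GENCODE gene model, which begins further upstream. All 6 windows held CCAAT on at least 1 strand. In the whole windows of 300 bases, CCAAT (either strand) stood in 44 of 52 histone promoters (84.62%), against 10248 of 27025 promoters of all genes (37.92%). It was in every H1, H2A, H2B and H3 promoter (5, 14, 14 and 8) and in 3 of 11 H4 promoters. The octamer ATTTGCAT stood in 11 of 52 (21.15%), 6 of them H2A and 5 H2B genes, against 1.75% of all promoters. TATAAA stood in 34 of 52 (65.38%), against 14.16% of all. These matches describe the letters and are not shown to be bound.

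Library totals ran from 722080 to 3502017 counts in genes (722080, 1046240 and 746318 in dKO-N 1 to 3), of which 372 to 1761 fell in the 59 genes. H3f3a lay at 22.1 to 37.8 CPM in the 8 knockout libraries, while control 1 and control 3 had less (17.7 and 16.4 CPM) and control 2 and control 4 had 117.2 and 120.9 CPM. The second targeted gene, H3f3b, was not lower in the knockouts: it had 169.8, 176.3, 180.1 and 166.7 CPM in dKO-E, 145.6, 117.5, 113.0 and 111.4 CPM in dKO-N, and 121.1, 76.7, 142.5 and 84.2 CPM in control. Every dKO-E library exceeded every dKO-N and control library, and H3f3b rose in dKO-E against control (log2 fold change 0.69, SE 0.138, edgeR adjusted p = 0.000707) and against dKO-N (0.53, SE 0.146, edgeR adjusted p = 0.0303). In dKO-N it was at 0.16 (SE 0.15, edgeR adjusted p = 0.583). Control 1 and control 3 go against their label on H3f3a, and the dKO-E libraries on H3f3b. Which parts of the genes are removed is not given in the labels, so counts over a whole gene check the deletion only in part. Groups are therefore named by their labels and each direction is one between labels. Alignments to several places, which are left out of gene counts, made up 2.83% to 3.29% of dKO-E libraries, 2.34% to 4.16% of dKO-N libraries and 2.3% to 2.92% of control libraries. This bears on near-identical genes: in 14 of the 59 genes at least 80% of the 50-base windows of the transcripts also occur in another gene, and their median level was 1.12 CPM. The median was 4.35 CPM in the 29 genes with under 50% of windows shared. Exons of 20 of the genes overlap a gene on the other strand and those of 4 a gene on the same strand, and whether counting used strand is not stated, so their counts are uncertain.

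The histone genes differed widely in level. Per kb of annotated exon, the mean over 12 libraries was highest for Hist1h2ak (100.7 CPM per kb), Hist1h1e (83.6), Hist1h2af (58.8), the pseudogene Hist1h2al (53.4) and Hist1h4k (45.2). Without the division by length, Hist1h1e alone held 28.5% of the summed CPM of all 59 genes and the 12 highest genes held 74.8%. At the other end, 38 genes averaged under 5 CPM. Hist1h2aa, Hist1h2ba and Hist2h2bb were listed at 0 in all 12 libraries. A listed 0 does not show absence in these tables, since the neuronal tubulin gene Tubb3 and the progenitor gene Sox2 were also listed at 0 in all 12. Hist2h2bb lies inside other annotated genes on both strands. Levels per kb also depend on the gene model, because that of Hist1h1d runs 4884 bases past its stem-loop and that of Hist2h2ac 57.

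**Figure D1:**
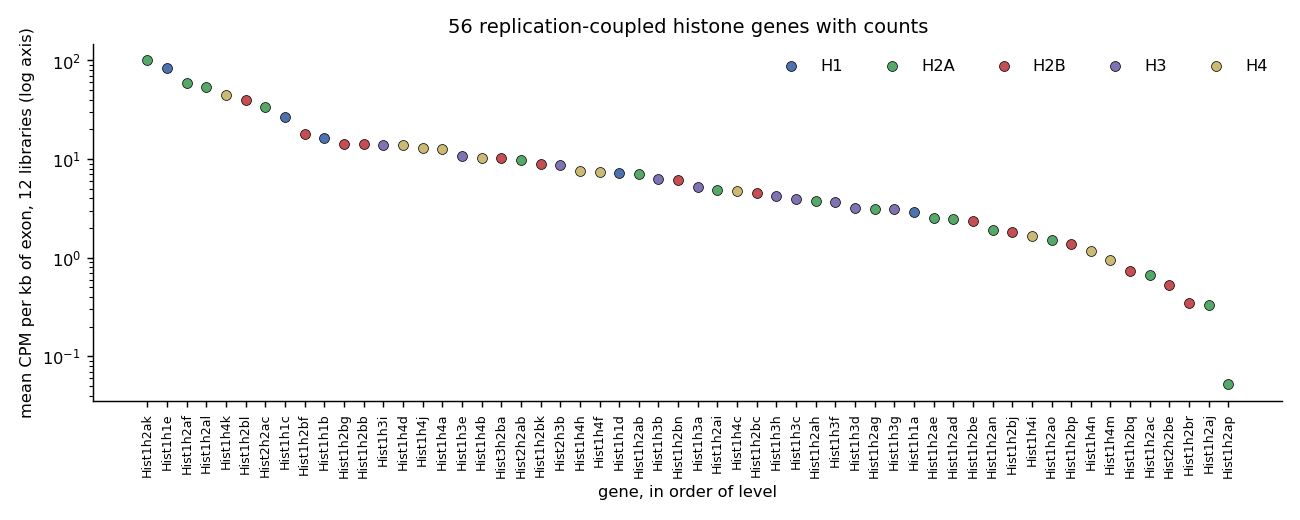
Mean level of each replication-coupled histone gene with counts, as CPM per kb of annotated exon over 12 libraries (log axis), in order of level and coloured by histone type. Hist1h2ak and Hist1h1e stand at the top with 100.7 and 83.6 CPM per kb, and genes of every type are spread over the range.

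Summed over all 59 genes, whatever their level, the histone RNA was higher on average in both knockouts. The sums in dKO-E 1 to 4 were 664.2, 581.9, 607.6 and 540.3 CPM, those in dKO-N 1 to 4 were 653.0, 806.6, 512.8 and 529.0 CPM, and those in control 1 to 4 were 409.0, 533.6, 443.1 and 517.7 CPM. All dKO-E libraries lay above all control libraries, whereas dKO-N 3 lay below control 2 and control 4. The means were 598.5 ± 51.9 CPM in dKO-E, 625.4 ± 136.1 in dKO-N and 475.8 ± 59.5 in control, ratios of 1.26 for dKO-E and 1.31 for dKO-N over control. The dKO-N mean leaned on dKO-N 2, without which it was 564.9 CPM (ratio 1.19). Against control 2 and control 4 alone (mean 525.6 CPM), the ratios were 1.14 for dKO-E and 1.19 for dKO-N. The sums are given with no test, since the genes were chosen with results of these libraries known. In whole cortex, a change in the number of cells that express these genes and a change in RNA per cell cannot be told apart.

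The types did not share 1 ratio. Against all 4 control libraries H4 had the largest, with sums of 66.0, 70.1, 73.5 and 60.4 CPM in dKO-E, 84.4, 102.6, 57.9 and 64.9 CPM in dKO-N and 34.6, 57.5, 45.3 and 41.8 CPM in control. Every knockout library exceeded every control library, at ratios of means of 1.51 in dKO-E and 1.73 in dKO-N, and they still did so against control 2 and control 4 alone (1.36 and 1.56). H3 sums averaged 43.9 ± 6.33 CPM in dKO-E, 46.4 ± 16.7 in dKO-N and 30.1 ± 2.57 in control (ratios 1.46 and 1.54), again without overlap, and against control 2 and control 4 alone the ratios were 1.4 in dKO-E, above that of H4, and 1.48 in dKO-N. H2A sums averaged 115.6 ± 13.5, 146.5 ± 53.2 and 91.2 ± 9.86 CPM in dKO-E, dKO-N and control, and overlapped in both comparisons, also against control 2 and control 4 alone (ratios 1.16 and 1.47). These sums include the pseudogene Hist1h2al, with means of 10.3 CPM in dKO-E, 29.0 in dKO-N and 15.0 in control. The overlap of the H2A sums with control rests on this pseudogene. The H1 sum was 303.9 ± 41.2 CPM in dKO-E, 270.1 ± 51.1 in dKO-N and 241.5 ± 36.4 in control (ratios 1.26 and 1.12), also with overlap. Against control 2 and control 4 alone the H1 ratios were 1.12 in dKO-E and 0.99 in dKO-N. H2B parted the knockouts: it averaged 67.6 ± 5.21 CPM in dKO-E, 85.0 ± 10.8 in dKO-N and 68.2 ± 5.21 in control. All 4 dKO-N libraries were above all control libraries in H2B (ratio 1.25), while the dKO-E mean had a ratio of 0.99. Against control 2 and control 4 alone, the H2B sums of all dKO-E libraries were lower than both (ratio 0.93) and those of all dKO-N libraries higher than both (1.17). For the core histones together (H2A, H2B, H3 and H4) the ratios were 1.26 in dKO-E and 1.52 in dKO-N, without overlap.

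**Figure D2:**
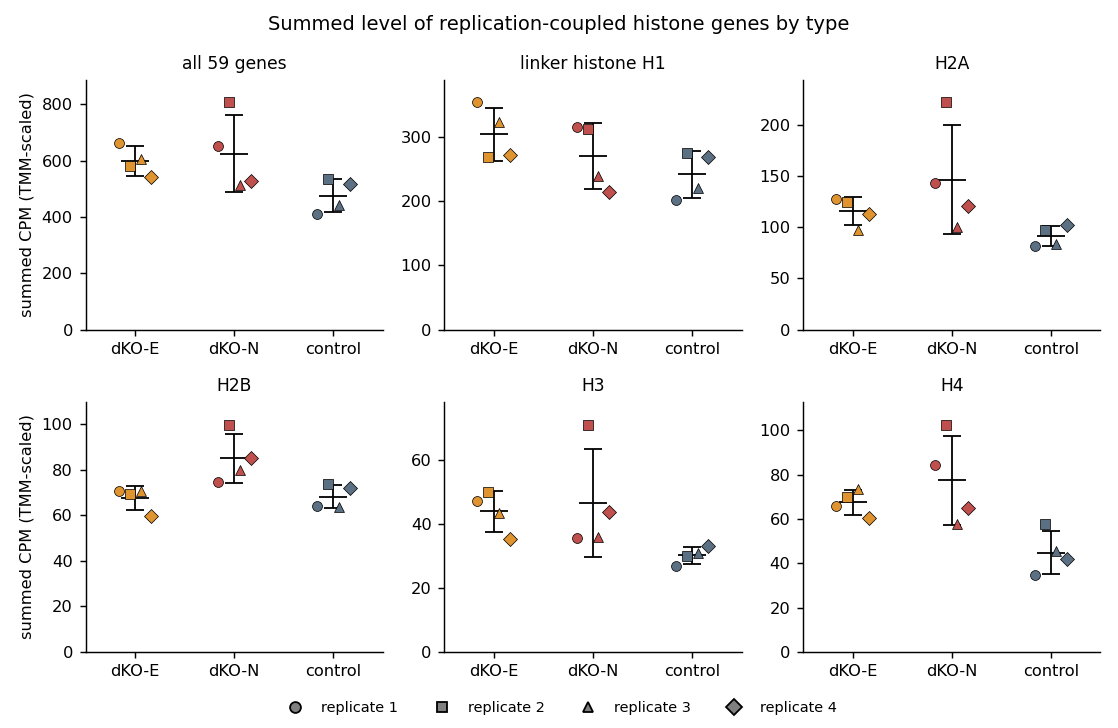
Summed TMM-scaled CPM of the 59 genes and of each histone type by library, with dKO-E, dKO-N and control from left to right, symbols for replicates, and bars for mean and SD (n = 4). The H3 and H4 sums of all 8 knockout libraries lie above those of the 4 control libraries, and dKO-N 2 is the highest library in every panel but H1.

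By cluster, the Hist2 sum was 35.3 ± 4.16 CPM in dKO-E, 28.2 ± 11.8 in dKO-N and 19.1 ± 3.97 in control, and dKO-E (ratio 1.85) did not overlap control. The Hist1 sum was 557.6 ± 51.6 CPM in dKO-E, 589.7 ± 120.3 in dKO-N and 451.1 ± 59.7 in control, with overlap in both comparisons. On chromosome 13 the Hist1 genes fall into a first block of 23 genes (21715763 to 22043676, Hist1h2bl to Hist1h2bj) and a second of 29 (23531050 to 23934851, Hist1h4h to Hist1h2aa), with Hist1h2al far from both. The first block summed to 118.8 ± 8.13 CPM in dKO-E, 141.7 ± 34.8 in dKO-N and 93.3 ± 17.0 in control. The second summed to 428.5 ± 48.7 CPM in dKO-E, 418.9 ± 78.9 in dKO-N and 342.8 ± 39.3 in control. In both blocks the means of both knockouts exceeded that of control.

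Single genes were tested with edgeR's quasi-likelihood test, with p-values adjusted by the Benjamini-Hochberg method over all 11076 genes tested and a threshold of 0.05. Only 26 of the 59 histone genes passed the filter on low counts, and 33 did not enter the test. In dKO-E against control 4 of the 26 rose (Hist2h2ac, Hist1h1c, Hist1h1b and Hist1h1d) and 0 fell, where 10.1% of all genes tested rose and 10.1% fell. In dKO-N against control 2 rose (Hist1h2af and Hist1h4d) and 0 fell, where 5.04% of all genes rose and 6.29% fell. At an unadjusted p under 0.05, 10 histone genes were higher in dKO-E and 0 lower, where 16.5% of all genes were higher and 15.1% lower. In dKO-N 12 were higher and 0 lower, where 11.6% of all genes were higher and 11.5% lower. DESeq2 called 3 histone genes higher and 0 lower in each, against 7.39% of all genes higher and 8.41% lower in dKO-E and 4.22% higher and 5.44% lower in dKO-N. Without control 1 and control 3, of 31 histone genes tested, 1 was higher (Hist2h2ac) and 1 lower (Hist1h2al) in dKO-E, and 1 was higher in dKO-N (Hist1h2af). Of all 11580 genes tested in that fit, 558 were higher and 657 lower in dKO-E, and 299 were higher and 457 lower in dKO-N. The log2 fold changes had a median of 0.45 in dKO-E, with 20 of 26 above 0, and of 0.56 in dKO-N, with 23 of 26 above 0. Over all genes the medians were 0.01 in both, with 50.8% above 0 in dKO-E and 51.8% in dKO-N. The filter asks for the count in only as many libraries as 1 group holds, so a low gene can enter through knockout libraries alone. Hist1h4b, Hist1h3b, Hist1h3f and Hist1h2bk did so, with no control library above 4.65 CPM. Their values above 0 were thus favoured by the filter. Other genes, such as Hist1h4a and Hist1h4j, reached its limit in only part of the control libraries and also needed knockout libraries to enter. With no filter, 38 of 56 histone genes were above 0 in dKO-E (median 0.32) and 47 of 56 in dKO-N (median 0.54). Over all genes those medians were 0.05 and 0. The knockouts share their control libraries, so the values of both are not independent. Libraries of the groups did not overlap, on the higher side, for 6 of 26 histone genes in dKO-E (12.5% of all genes) and for 1 in dKO-N (5.84% of all genes), and on the lower side for 0 in either (13.0% and 7.19% of all genes).

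**Figure D3:**
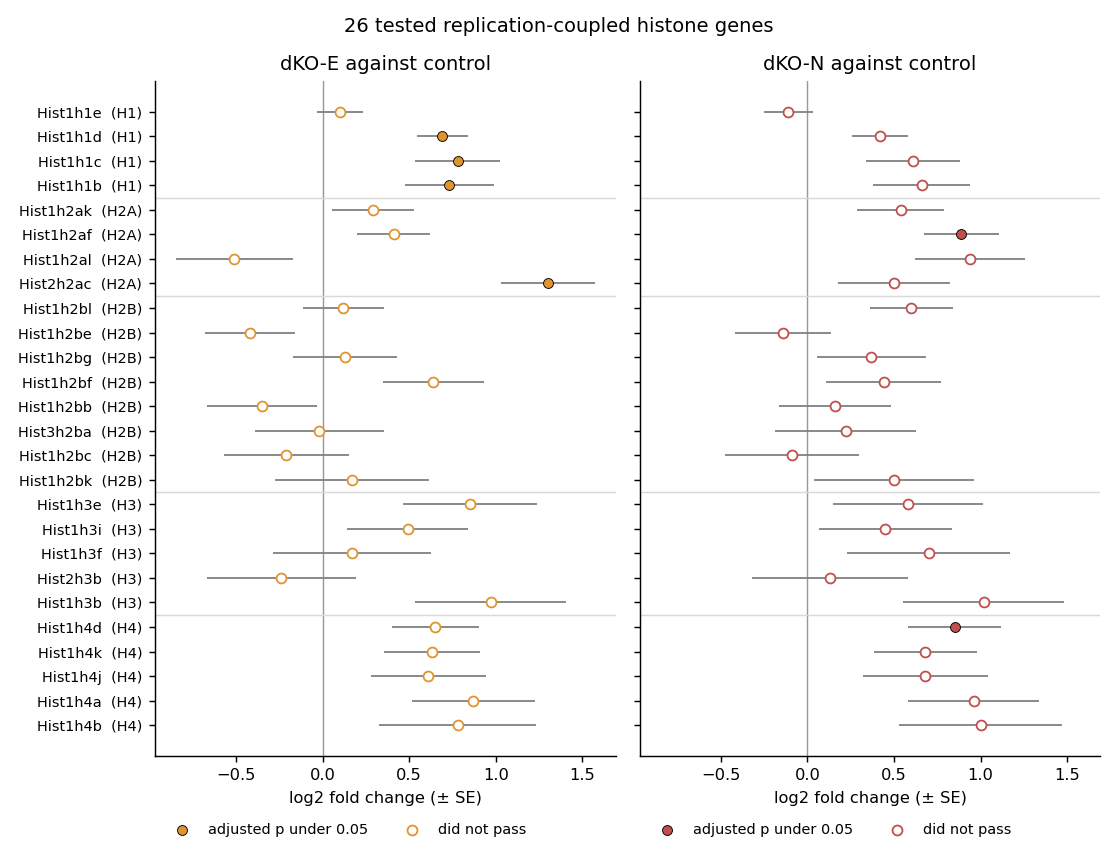
Log2 fold change with SE of the 26 tested replication-coupled histone genes in dKO-E (left) and dKO-N (right) against control, by type and level, with filled points for an edgeR adjusted p under 0.05. All 5 H4 genes lie above 0 in both panels, and 4 of 8 H2B genes lie below 0 in dKO-E.

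The linker histone genes had the largest sum in CPM not divided by length, and 3 of the 4 tested rose in dKO-E. Per kb, the H1 sums averaged 151.7 CPM in dKO-E, 137.8 in dKO-N and 121.9 in control, below the H2A sums of 271.0, 360.2 and 222.8. Linker histones bind the nucleosome where DNA enters and leaves it and help fold chromatin. Hist1h1d (H1f3 in RefSeq, chromosome 13, 23553262 to 23560686, plus strand) had 83.6, 52.3, 69.2 and 58.7 CPM in dKO-E 1 to 4, 65.3, 54.1, 56.5 and 47.8 CPM in dKO-N 1 to 4, and 37.4, 48.5, 31.1 and 46.0 CPM in control 1 to 4. All 4 dKO-E libraries exceeded all control libraries, and dKO-N 4 was below control 2. It rose in dKO-E by a log2 fold change of 0.69 (SE 0.148, edgeR adjusted p = 0.000627), and the call held when any 1 library was left out. Without control 1 and control 3 it was lost (edgeR adjusted p = 0.0916). In dKO-N its log2 fold change was 0.42 (SE 0.163, edgeR adjusted p = 0.0986).

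Hist1h1c (H1f2, 23738808 to 23740367) had 72.5, 51.1, 46.9 and 31.9 CPM in dKO-E, 49.0, 61.5, 33.1 and 37.5 CPM in dKO-N, and 21.2, 28.2, 26.3 and 42.9 CPM in control. Control 4 lay above the lowest library of each knockout, and the other 3 control libraries below all 8 knockout libraries. The log2 fold change was 0.78 in dKO-E (SE 0.247, edgeR adjusted p = 0.0357) and 0.61 in dKO-N (SE 0.271, edgeR adjusted p = 0.191). The dKO-E call was lost without any 1 of control 1, 2 or 3 or dKO-E 1, 2 or 3 (edgeR adjusted p up to 0.107), and without control 1 and control 3 together (0.32). It was also lost with the replicate block (edgeR adjusted p = 0.0705), in a fit of the 8 libraries alone (0.067) and when libraries were thinned to the smallest total (0.111). Hist1h1b (H1f5, 21779883 to 21780625) had 17.6, 12.2, 13.3 and 14.5 CPM in dKO-E, 12.2, 12.1, 16.5 and 13.5 CPM in dKO-N, and 8.83, 10.7, 4.32 and 10.8 CPM in control. All 8 knockout libraries exceeded the 4 control libraries. It rose in dKO-E (log2 fold change 0.73, SE 0.257, edgeR adjusted p = 0.0401), and was at 0.66 in dKO-N (SE 0.28, edgeR adjusted p = 0.141). The dKO-E call was lost without any 1 of control 1 or 3 or dKO-E 1, 3 or 4 (edgeR adjusted p up to 0.191), and without control 1 and control 3 together (0.468). It was also lost with DESeq2 (adjusted p = 0.0777), with no filter on low counts (edgeR adjusted p = 0.0713) and when thinned (0.191). No 50-base window of Hist1h1b occurs in another gene.

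Hist1h1e (H1f4, 23620629 to 23622558), the highest in CPM not divided by length, did not pass a test. It had 176.3, 151.5, 192.3 and 165.6 CPM in dKO-E, 183.7, 182.8, 132.3 and 110.5 CPM in dKO-N, and 133.1, 185.8, 156.3 and 166.9 CPM in control. The 3 groups overlapped, with log2 fold changes of 0.10 in dKO-E (SE 0.131, edgeR adjusted p = 0.648) and -0.11 in dKO-N (SE 0.141, edgeR adjusted p = 0.71). Its exons overlap those of Hist1h2be on the same strand, and 32.0% of its windows are shared. Without Hist1h1e, the other 58 genes summed to 427.1 ± 46.9 CPM in dKO-E, 473.0 ± 106.9 in dKO-N and 315.3 ± 39.5 in control (ratios 1.35 and 1.5), with no overlap in either comparison. Hist1h1a, the fifth H1 gene, had at most 5.44 CPM in a library and did not enter the test.

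**Figure D4:**
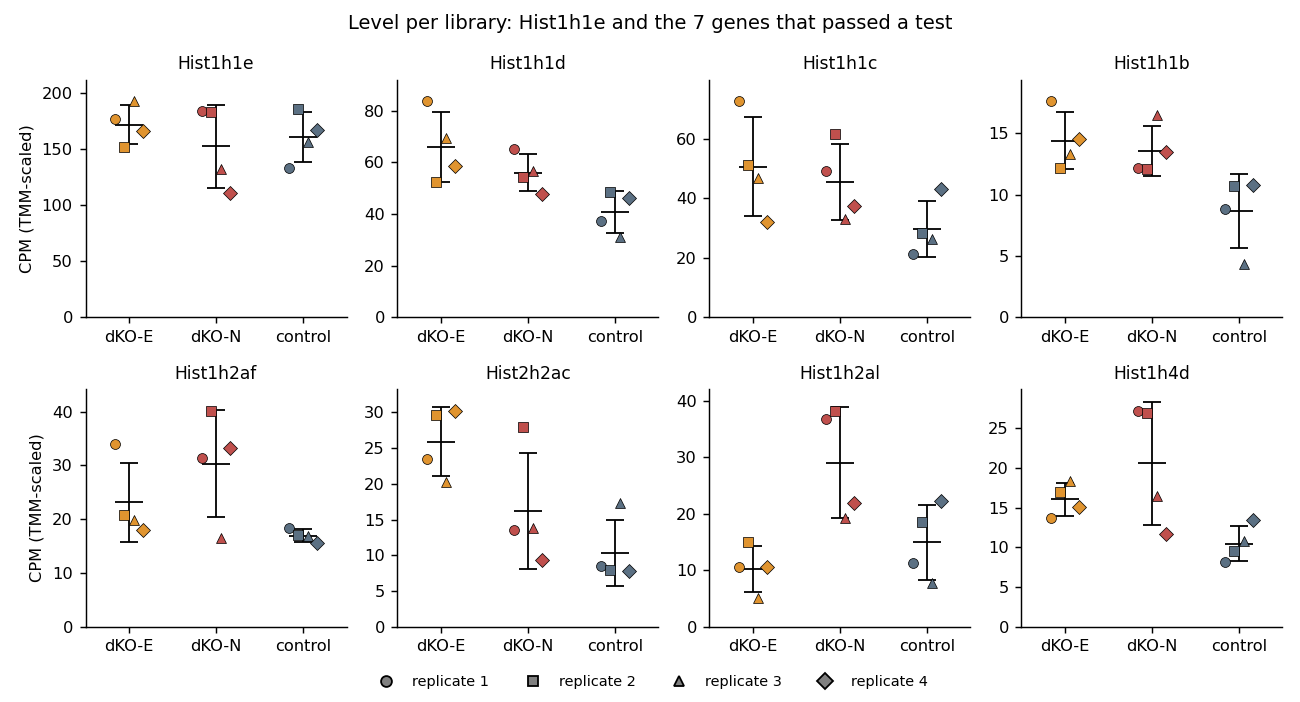
TMM-scaled CPM of Hist1h1e and of the 7 genes that passed a test in any comparison, by library, with dKO-E, dKO-N and control from left to right and bars for mean and SD (n = 4). Hist1h1d, Hist1h1b, Hist2h2ac and Hist1h4d in dKO-E lie above all control libraries, and Hist1h2al in dKO-E lies below all dKO-N libraries.

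Of the H2A genes, which form the outer part of the nucleosome core with H2B, 4 of 17 entered the test. Hist2h2ac (H2ac20 in RefSeq, chromosome 3, 96220361 to 96220880, minus strand) had the largest rise of the histone genes called. It had 23.5, 29.6, 20.3 and 30.2 CPM in dKO-E, 13.6, 28.0, 13.8 and 9.31 CPM in dKO-N, and 8.48, 7.99, 17.3 and 7.75 CPM in control. All dKO-E libraries exceeded all control libraries, although control 3 was well above the other control libraries. In dKO-E its log2 fold change was 1.30 (SE 0.272, edgeR adjusted p = 0.000802), and the call held in all 8 fits without 1 library and in all 9 other settings (edgeR adjusted p up to 0.00789). In dKO-N it was 0.50 (SE 0.324, edgeR adjusted p = 0.389), and between dKO-E and dKO-N it was 0.80 (SE 0.29, edgeR adjusted p = 0.0941). Its neighbour on the other strand, Hist2h2ab (96219865 to 96220308), did not enter the test. It had 5.88, 4.86, 3.52 and 3.92 CPM in dKO-E, 5.44, 9.33, 4.14 and 4.81 CPM in dKO-N, and 2.47, 2.13, 2.59 and 3.10 CPM in control, and every knockout library was above every control library.

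Hist1h2af (H2ac10, chromosome 13, 23533906 to 23534304, plus strand) rose in dKO-N. It had 34.0, 20.7, 19.9 and 17.9 CPM in dKO-E and 31.3, 40.1, 16.5 and 33.3 CPM in dKO-N, against 18.4, 17.0, 16.8 and 15.5 CPM in control. In dKO-N 3 libraries exceeded all control libraries and dKO-N 3 lay among them. The log2 fold change was 0.89 (SE 0.215, edgeR adjusted p = 0.00386), and the call held in all 8 fits without 1 library and in all 9 other settings (edgeR adjusted p up to 0.0358). In dKO-E it was 0.41 (SE 0.21, edgeR adjusted p = 0.18). Of its windows 79.7% also occur in another gene, most with Hist1h2ad, and its exons overlap Gm44297 on the other strand. Hist1h2ak (21753435 to 21753827, minus strand), the highest gene per kb, had 40.5, 41.3, 36.0 and 38.0 CPM in dKO-E, 46.3, 83.9, 26.2 and 33.9 CPM in dKO-N, and 25.4, 35.7, 30.7 and 37.2 CPM in control. Its groups overlapped, and it did not pass (log2 fold change 0.29, edgeR adjusted p = 0.444 in dKO-E, and 0.54, edgeR adjusted p = 0.201 in dKO-N). In dKO-N it was called with no filter on low counts (edgeR adjusted p = 0.04876) and without dKO-N 4 (0.03738).

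Hist1h2al (chromosome 13, 51202727 to 51203065, minus strand) is annotated as a processed pseudogene. It was the 1 histone gene of 26 that differed between the knockouts, lower in dKO-E, where 3.73% of all genes tested were lower and 3.11% higher. It had 10.5, 15.0, 5.08 and 10.6 CPM in dKO-E, against 36.7, 38.2, 19.3 and 21.9 CPM in dKO-N, with no overlap. The control libraries, at 11.3, 18.6, 7.77 and 22.2 CPM, overlapped both. The log2 fold change of dKO-E against dKO-N was -1.45 (SE 0.336, edgeR adjusted p = 0.0119), and the call was lost when all libraries were thinned to the smallest total (edgeR adjusted p = 0.0645). Against control it was -0.51 in dKO-E (edgeR adjusted p = 0.329) and 0.94 in dKO-N (edgeR adjusted p = 0.0601). The rise in dKO-N passed with DESeq2 (adjusted p = 0.03413) and with no filter on low counts (edgeR adjusted p = 0.002739). It also passed with the replicate block (edgeR adjusted p = 0.01499) and in a fit of the 8 libraries alone (0.03743). By library totals and when thinned it did not. Of its windows 67.6% also occur in another gene, most with Hist2h2aa2, and its exons overlap Gm44341 on the other strand.

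With the filter on low counts, the H2B genes passed no test in the 3 comparisons with edgeR or DESeq2, and at an unadjusted p under 0.05 there was 1 in dKO-E and 1 in dKO-N. The 8 of 16 that were tested had a median log2 fold change of 0.05 in dKO-E (range -0.42 to 0.64, 4 above 0) and of 0.30 in dKO-N (range -0.14 to 0.60, 6 above 0). Hist1h2bl (21715763 to 21716143), the most abundant, had 13.7, 17.0, 13.3 and 11.7 CPM in dKO-E, 17.7, 22.4, 12.4 and 21.6 CPM in dKO-N, and 9.18, 17.6, 12.5 and 13.4 CPM in control. The dKO-N libraries ran higher but overlapped control (log2 fold change 0.60, SE 0.239, edgeR adjusted p = 0.111), and dKO-E was at 0.12 (SE 0.233, edgeR adjusted p = 0.763). Hist1h2be, whose model overlaps Hist1h1e, had 8.82 ± 2.46 CPM in dKO-E, 10.3 ± 2.37 in dKO-N and 12.2 ± 2.60 in control (log2 fold changes -0.42 and -0.14). Hist3h2ba, the Hist3 gene (58948920 to 58949533), had 5.63 ± 1.65 CPM in dKO-E, 7.51 ± 4.20 in dKO-N and 5.68 ± 1.21 in control.

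The H3 genes encode the H3 forms that are placed at replication, the counterpart of the deleted H3.3. They were low. Hist1h3e (23561534 to 23562369), the highest in CPM not divided by length (per kb Hist1h3i was higher, at 13.9 against 10.7), had 10.5, 14.2, 10.9 and 9.51 CPM in dKO-E, 2.72, 24.2, 4.14 and 6.61 CPM in dKO-N, and 6.36, 3.20, 9.07 and 6.20 CPM in control. All dKO-E libraries exceeded all control libraries, and dKO-N ranged from below to above them. In the fit of all 12 libraries no H3 gene passed a test with edgeR or DESeq2, and at an unadjusted p under 0.05 there were 2 in dKO-E and 1 in dKO-N. The 5 of 10 that were tested had a median log2 fold change of 0.49 in dKO-E (4 above 0) and 0.58 in dKO-N (5 above 0). Hist1h3e was at 0.85 in dKO-E (SE 0.386, edgeR adjusted p = 0.131), a change that passed in a fit of the 8 libraries alone (edgeR adjusted p = 0.02009), and at 0.58 in dKO-N (SE 0.435, edgeR adjusted p = 0.481). Hist1h3b had the largest values, 0.97 in dKO-E (SE 0.435, edgeR adjusted p = 0.115) and 1.02 in dKO-N (SE 0.465, edgeR adjusted p = 0.176), with 2.12 to 3.10 CPM in control. Hist1h3b and Hist1h3f entered the test through knockout libraries alone, so the filter favoured their values and the counts of H3 genes above 0.

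H4, which pairs with H3 in the core of the nucleosome, was the type in which the tested genes were all above 0 in both knockouts. The 5 of 11 tested had log2 fold changes of 0.61 to 0.87 in dKO-E (median 0.65) and of 0.68 to 1.00 in dKO-N (median 0.85). The value of 1.00 is that of Hist1h4b, which entered the test through knockout libraries alone (2.07 to 3.73 CPM in control). Its direction was therefore favoured by the filter on low counts. Hist1h4a (2.12 to 6.72 CPM in control), which had the value of 0.87 in dKO-E, and Hist1h4j (3.18 to 12.8) were also affected. They reached the limit of the filter in only part of the control libraries and needed knockout libraries to enter. The filter may thus have favoured their direction too. Hist1h4d (H4c4 in RefSeq, 23581598 to 23582735, plus strand) had 13.7, 17.0, 18.4 and 15.1 CPM in dKO-E, 27.2, 27.0, 16.5 and 11.7 CPM in dKO-N, and 8.12, 9.59, 10.8 and 13.4 CPM in control. All dKO-E libraries exceeded all control libraries, while dKO-N 4 was below control 4. It rose in dKO-N (log2 fold change 0.85, SE 0.271, edgeR adjusted p = 0.0343), a call lost without any 1 of control 1, 2 or 3 or dKO-N 1 or 2 (up to 0.17) and without control 1 and control 3 together (edgeR adjusted p = 0.268). It was also lost in a fit of the 8 libraries alone (edgeR adjusted p = 0.053) and when thinned (0.0519). In dKO-E it was at 0.65 (SE 0.252, edgeR adjusted p = 0.0635). There it passed in a fit of the 8 libraries alone (edgeR adjusted p = 0.02243), by library totals (0.02835) and without control 4 (0.04965). Hist1h4k (21750194 to 21750505, minus strand) averaged 15.8 ± 6.01 CPM in dKO-E, 15.9 ± 6.53 in dKO-N and 10.6 ± 3.64 in control. It did not pass (log2 fold change 0.63, edgeR adjusted p = 0.11 in dKO-E, and 0.68, edgeR adjusted p = 0.16 in dKO-N). In dKO-E it was called by library totals (edgeR adjusted p = 0.04961) and without dKO-E 4 (0.03365). The 6 H4 genes outside the test included Hist1h4c, with at most 9.65 CPM in a library.

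The 33 genes outside the test had mean levels of 4.35 CPM or less over the 12 libraries, and single libraries often held none of their counts. Besides Hist2h2ab, every dKO-E library exceeded every control library for Hist1h3a and Hist1h2bq. Hist1h3a had 5.23, 2.43, 2.74 and 2.24 CPM in dKO-E, 5.44, 7.46, 1.38 and 1.5 CPM in dKO-N, and 1.41, 1.60, 1.30 and 1.03 CPM in control. The dKO-N libraries of Hist1h3a ran from control level to the highest of all. Hist1h2bq had 1.96, 0.405, 1.56 and 1.68 CPM in dKO-E, 2.72, 0, 6.89 and 2.10 CPM in dKO-N, and 0.353, 0, 0 and 0 CPM in control, values mostly at or near the 3-count floor of these libraries. With no filter on low counts it was called in dKO-N (edgeR adjusted p = 0.00719), with 1 count in the 4 control libraries together. Hist1h2bn was uneven within groups, with 13.8 CPM in dKO-N 3 and 7.06 CPM in control 1 and under 2 CPM in each of the other libraries.

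Other histone genes and the machinery of histone RNA were listed beside them. Of 11 variants that are made outside replication, 5 rose in dKO-E and 1 in dKO-N, with median log2 fold changes of 0.58 and 0.32. The H3.3 gene H3f3b, given above, was 1 of the 5. Of all genes tested, 10.1% rose and 10.1% fell in dKO-E, and 5.04% rose and 6.29% fell in dKO-N. These shares also apply to the short lists that follow, where a single call carries little weight. H2afv, an H2A.Z gene, rose in both, to 24.2 ± 3.63 CPM in dKO-E and 24.2 ± 2.35 in dKO-N, against 12.9 ± 3.70 in control (log2 fold changes 0.85 and 0.88, edgeR adjusted p = 0.00227 and 0.00506). H1fx, a linker histone outside the clusters, rose in dKO-E (log2 fold change 1.35, edgeR adjusted p = 0.00519), as did H1f0, the linker histone of resting cells (0.63, edgeR adjusted p = 0.000415). Of 19 genes for transcription and processing of histone RNA, 17 were tested. In dKO-E, Coil (coilin) rose (0.65, edgeR adjusted p = 0.00696), and in dKO-N, Lsm11, a part of the U7 particle that cuts histone RNA, fell (-0.77, edgeR adjusted p = 0.025), while DESeq2 called 0 of this list lower. Slbp was at 0.31 in dKO-E (edgeR adjusted p = 0.472) and -0.03 in dKO-N (edgeR adjusted p = 0.975), and Npat at -0.01 and -0.08. Of 12 tested chaperones of replication-coupled histones, 1 rose in dKO-E (Asf1a, 0.62, edgeR adjusted p = 0.0188) and in dKO-N 0 did by edgeR or DESeq2 (1 at an unadjusted p under 0.05). Of 7 chaperones of H3.3, Dek rose in dKO-E (0.61, edgeR adjusted p = 0.000401) and Cabin1 fell in dKO-N (-0.31, edgeR adjusted p = 0.0479), where DESeq2 called 0 lower.

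Lists of cell cycle and progenitor genes were summed in the same libraries. Beside the calls of single genes, 10.1% of all genes tested rose in dKO-E and 5.04% in dKO-N. The S phase list (54 genes) summed to 664.7 to 763.5 CPM in dKO-E and 658.5 to 715.4 in dKO-N, against 562.8 to 626.5 in control, with no overlap. Of its 37 tested genes, Gins1, a part of the replicative helicase, rose in dKO-E (0.89, edgeR adjusted p = 0.0289). In dKO-N the replication gene Mcm10 (1.36, edgeR adjusted p = 0.0369) and the ribonucleotide reductase gene Rrm2 (1.17, edgeR adjusted p = 0.0368) rose. DESeq2 called 0 of the list in either knockout (9 and 3 at an unadjusted p under 0.05 with edgeR). The edgeR calls of the S phase list lay near or below the shares of all genes. The G2 and mitosis list (32 genes) summed to 318.1 to 357.9 CPM in dKO-E and 288.4 to 520.3 in dKO-N, against 254.0 to 331.2 in control, and overlapped in both. Of its 21 tested genes, Kif4 and Hmgb2 rose in dKO-E and Kif4 and Cenpf in dKO-N, where DESeq2 called 1 and 0. The radial glia list (15 genes, Sox2 listed at 0) summed to 1625.3 to 1723.0 CPM in dKO-E and 1692.5 to 2293.8 in dKO-N, against 1351.5 to 1542.2 in control, and 5 of 11 tested genes rose in each. Intermediate progenitor markers (10 genes, Neurog1 at 0) summed to 85.0 to 107.8 CPM in dKO-E and 111.6 to 130.6 in dKO-N, against 47.7 to 71.8 in control, and 3 and 4 of 7 tested genes rose. The largest was Insm1, with 1.16 in dKO-E (edgeR adjusted p = 0.000106) and 1.56 in dKO-N (edgeR adjusted p = 2.85e-06). The part of these cells in the histone values was not tested.

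**Figure D5:**
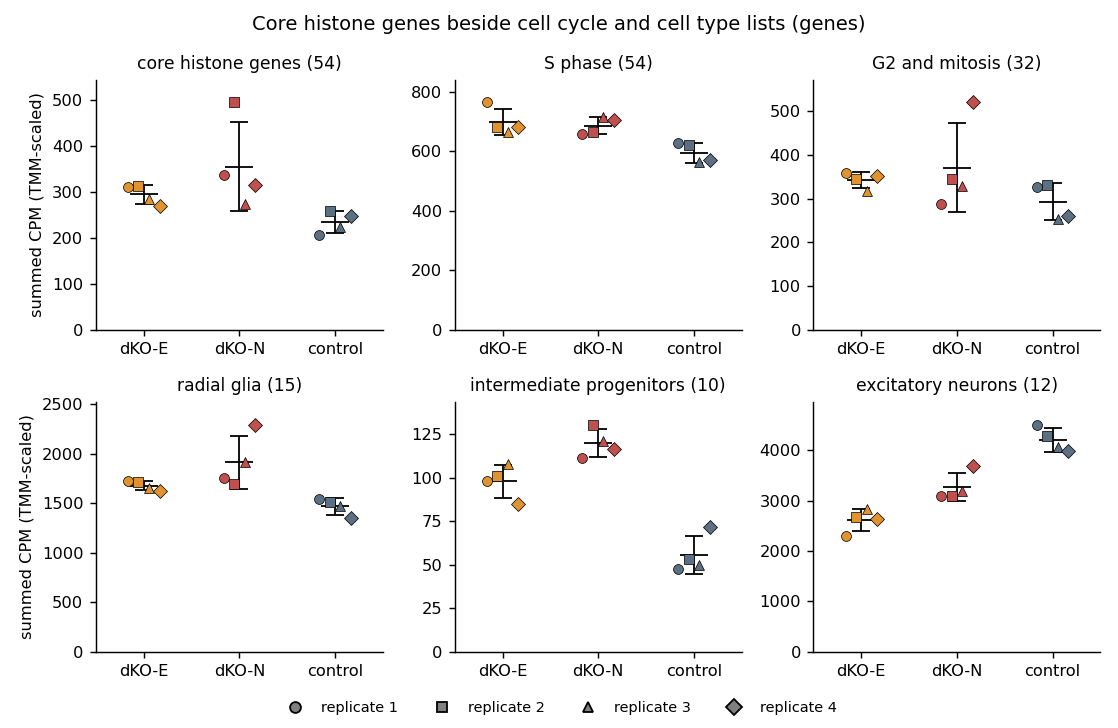
Summed TMM-scaled CPM by library of the 54 core histone genes, of the cell cycle lists and of 3 cell type lists, with dKO-E, dKO-N and control from left to right and bars for mean and SD (n = 4). S phase, radial glia and intermediate progenitor sums lie higher in all knockout libraries than in control, and excitatory neuron sums lie lower.

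The libraries were not ordered alike in these lists. dKO-N 2, the highest in summed histone RNA (806.6 CPM) and in alignments to several places (4.16%), was not the highest in S phase or in G2 and mitosis. It was the highest of all libraries in intermediate progenitor markers (130.6 CPM). dKO-E 1, the highest dKO-E library in histone RNA (664.2 CPM), was the highest of all libraries in S phase (763.5 CPM). dKO-N 4, the highest in G2 and mitosis (520.3 CPM) and in radial glia (2293.8 CPM), had 529.0 CPM of histone RNA, the second lowest of the dKO-N libraries. Excitatory neuron markers (12 genes, Neurod1 and Tubb3 at 0) summed to 2306.2 to 2830.3 CPM in dKO-E and 3085.6 to 3675.9 in dKO-N, against 3985.8 to 4507.0 in control. In dKO-E 5 of 10 tested fell and 1 rose, and in dKO-N 2 fell and 1 rose. Of all genes tested, 10.1% fell in dKO-E and 6.29% in dKO-N. Interneuron markers overlapped between groups, summing to 401.1 to 606.1 CPM in dKO-E, 472.8 to 571.9 in dKO-N and 462.9 to 545.9 in control. Microglia and macrophage markers summed to 19.9 to 26.1 CPM in dKO-E and 17.9 to 27.2 in dKO-N, against 11.3 to 16.5 in control, with no overlap, and of 2 tested Csf1r rose in dKO-E (1.35, edgeR adjusted p = 0.00793). The summed levels of endothelial and mural markers were lower in both knockouts (at most 97.3 CPM in dKO-E and 94.9 in dKO-N, against at least 99.9 in control). Those of the oligodendrocyte lineage were 412.8 to 534.7 CPM in dKO-E, 182.3 to 388.7 in dKO-N and 268.9 to 343.8 in control. The dKO-E sum was mostly Lhfpl3 (425.7 CPM, against 242.3 in control), which rose (0.81, edgeR adjusted p = 0.0465), whereas Gpr17 (-1.64, edgeR adjusted p = 0.0193) and Pdgfra (-0.71, edgeR adjusted p = 0.0034) fell and the median of the 6 tested was -0.56. Astrocyte markers summed to 56.7 to 79.0 CPM in dKO-E, above control without overlap, and 50.5 to 72.1 in dKO-N, against 37.3 to 51.1 in control. Of 5 tested, Aldh1l1 rose in dKO-E (0.89, edgeR adjusted p = 0.00055). Meningeal markers stood at 106.5 and 40.5 CPM in dKO-E 1 and dKO-E 2, and at 10.1 to 23.4 CPM in the other 10 libraries. Red blood cell markers overlapped, at 25.8 to 49.6 CPM in dKO-E, 31.7 to 59.9 in dKO-N and 36.4 to 56.4 in control. The part of these cells in the histone values was likewise not tested.

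The histone genes outside the name pattern were low. Hist2h2aa2, an H2A gene of the Hist2 cluster, had 11.8, 7.29, 5.47 and 7.27 CPM in dKO-E, 4.08, 15.9, 9.65 and 2.70 CPM in dKO-N, and 1.06, 3.20, 6.05 and 4.13 CPM in control (log2 fold changes 1.12 and 0.97, edgeR adjusted p = 0.0955 and 0.284). Only dKO-E 3 among the dKO-E libraries lay below the highest control library. Hist2h4 was at 8.49, 4.05, 5.47 and 4.47 CPM in dKO-E, 1.36, 21.4, 5.51 and 2.70 in dKO-N, and 5.65, 4.79, 4.75 and 2.58 in control, where dKO-N 2 again stood highest. The H3 gene Hist2h3c2, which did not enter the test, had 1.31, 0, 0.781 and 1.68 CPM in dKO-E, 4.08, 4.66, 5.51 and 1.80 CPM in dKO-N, and 5.65, 2.13, 7.34 and 3.62 CPM in control. All dKO-E libraries were below all dKO-N and control libraries.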

How the data were processed

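RNA counts of 12 libraries of neonatal mouse cortex were used, 1 table per library. The authors deposited whole-number counts per gene that were not normalized. The tools named in the submitters' processing notes are STAR, UMI-tools and HTSeq, with the mm10 build. Their versions and options, the annotation and the use of strand are not given in the sources. The 5 summary lines per table (no feature, ambiguous, several places) stayed out of totals and tests. Names and positions came from GENCODE M21 by gene identifier (51633 matched, 99.5%).

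After TMM scaling, genes were filtered by filterByExpr (minimum count 10; 11076 genes, 99% of counts) and tested with edgeR 4.0.16 (robust quasi-likelihood) under R 4.3.3, in 1 fit of 12 libraries with a term for group and Benjamini-Hochberg adjustment over all genes tested. The common biological coefficient of variation was 10.6%. At the depths of 722080 to 3502017 counts, 3 counts correspond to 0.857 to 4.155 CPM, counting error only. DESeq2 1.42.0 was an alternative. The fit was tested on simulated data. Replicates within a group differed by more than sampling noise (chi-square over its degrees of freedom at least 1.625). The members and gene lists were chosen with earlier results of these data known. Named genes are those that passed a test, the 12 highest in mean CPM, the highest of each type and cluster, and up to 3 called genes of each companion list. Hist1h3a, Hist1h3b, Hist1h2bn, Hist1h2bq, Hist1h4c, Hist1h1a, Hist2h2ab, H1f0, Slbp, Npat, Hist1h3i, Hist2h4 and Hist2h3c2 were named after their values were seen.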

Additional observations from a re-analysis of the deposited data

Results flagged for a closer look

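Among 75 groups of 4 libraries looked at, a single library stood far from the others of its group in 2 cases. Chance gives this in about 1 group in 20, so 2 of 75 is no more than chance would give. Hist2h2ac had 17.3 CPM in control 3, against 7.75 to 8.48 CPM in the other control libraries. The summed H2B genes had 59.8 CPM in dKO-E 4, against 69.3 to 70.7 CPM in the other dKO-E libraries. The effects of the knockouts on Hist1h2al differed by a tested log2 fold change of -1.45 for dKO-E against dKO-N (edgeR adjusted p = 0.0119).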

How the results depend on the processing

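Counts of histone genes called rested on few genes near the threshold. In dKO-E against control, 4 were called; scaling by library totals gave 7, thinning every library to the smallest total gave 2, leaving out control 1 and control 3 gave 2 (Hist2h2ac higher and Hist1h2al lower), and fits without 1 library gave 2 to 6. Library totals also moved the median of all genes in dKO-E to 0.14 and the split of all genes called to 1988 higher and 701 lower (1120 and 1118 with TMM), and in dKO-N to 760 higher and 554 lower (558 and 697). In dKO-N against control, 2 were called; no filter gave 6, thinning 1, leaving out control 1 and control 3 gave 1, and fits without 1 library 1 to 4. In dKO-E against dKO-N, 1 was called; no filter gave 2, thinning 0 (edgeR, 3 at an unadjusted p under 0.05; DESeq2, not thinned, 1), and fits without 1 library 1 to 2. Over all genes, thinning gave 1234 calls in dKO-E, 751 in dKO-N and 307 between the knockouts (2238, 1255 and 758 before), in fewer genes tested and fewer counts. Leaving out control 1 and control 3 gave 1215 in dKO-E and 756 in dKO-N. Between the knockouts, a fit of the 8 libraries alone gave 488 and fits without 1 library 300 to 1036. Replicate numbers did not pair the libraries (correlations of -0.124 to 0.013); with the replicate block, 3 histone genes were called in dKO-E, 3 in dKO-N and 1 between the knockouts, and 500 of all genes between the knockouts.

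Signs turned only in values that had not passed a test, and the cause was not tested. Without control 1 and control 3, the log2 fold change in dKO-E was -0.04 for Hist1h1e and -0.14 for Hist1h2bl. Thinned, Hist1h2bl in dKO-E was -0.04 and Hist1h4k between the knockouts 0.32. By library totals, Hist1h4k was 0.02 between the knockouts and Hist3h2ba 0.11 in dKO-E. In fits without 1 library, dKO-E against control ranged from -0.04 to 0.28 for Hist1h2bl and from -0.18 to 0.10 for Hist3h2ba. In dKO-N against control, the ranges were -0.24 to 0.07 for Hist1h1e, -0.22 to 0.90 for Hist1h3e and -0.26 to 0.73 for Hist3h2ba. Between the knockouts, they were -0.55 to 0.02 for Hist1h4d, -0.02 to 0.35 for Hist1h1c, -0.03 to 0.15 for Hist1h1b, -0.50 to 0.15 for Hist1h2ak, -0.29 to 0.15 for Hist1h4k, -0.05 to 1.07 for Hist1h3e and -0.75 to 0.24 for Hist3h2ba. Of all values recomputed, 617 kept direction and side of the threshold, 29 lost a call, 19 gained a call and 24 turned in sign.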
